A study of Oryza sativa Japonica Group with 17 samples.

Results

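Roots of rice mutants of one or the other of the main cytosolic glutamine synthetase genes were set directly against each other. The comparison took the 2 arrays titled NC2373 homozygote, from an insertion line of OsGS1;1, and the 3 arrays of the gs1;2 mutant of OsGS1;2, so 5 of the 17 samples of the study. Each sample is 1 plant on 1 Affymetrix rice array, and the study's text calls the samples of a group biological replicates. All plants were of the cultivar Nipponbare, and roots were collected after 18 days of water culture in a greenhouse with 1 mM ammonium as the nitrogen source. The homozygotes segregated from heterozygous NC2373 seed, and 3 plants of that line with no insertion are their control. The gs1;2 plants were raised from homozygous seed with no segregated control, so 3 wild type plants stand beside them. A second OsGS1;1 line, ND8037, with 3 homozygotes and 3 of its own segregants without the insertion, entered the model and is quoted in places. On the kind of insertion and its place in each gene the sources used here say nothing, so whether a probe set lies beyond the insertion is not known.

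Glutamine synthetase joins ammonium to glutamate and so makes glutamine, and glutamate synthase then passes the amide group of glutamine to 2-oxoglutarate to give back glutamate. Plants carry a plastid form, GS2, and several cytosolic forms, GS1, each from its own gene. In rice roots supplied with ammonium, OsGS1;2 is known as a form of the outer cell layers that assimilates ammonium after its uptake, while OsGS1;1 is known for a part in the balance of carbon and nitrogen metabolism and in growth.

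Signals are log2 values, so a difference of 1 is a doubling, and a difference is given as the homozygotes minus gs1;2 unless another pair is named. A probe set or gene is called different where the adjusted p of limma, by Benjamini-Hochberg over 57258 probe sets, is under 0.05. Of the 57258 probe sets, 6740 were called (11.8%), 3672 higher in the NC2373 homozygotes (6.41%) and 3068 lower (5.36%). Among the larger differences the higher side led, since 1326 called probe sets were at least 1 log2 unit higher (2.32%) and 453 at least 1 unit lower (0.791%). Counted by gene, with 1 probe set each, 12.3% were called higher and 8.13% lower, the shares to hold beside the gene counts below. The 6740 calls fell to 3209 without homozygote plant 117, to 3742 without homozygote plant 118 and to 4280 without gs1;2 plant 356. Where 1 homozygote array is left out, the lone sample is assumed to vary like the other groups.

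A direct comparison of these mutants also contains whatever separates the NC2373 line from wild type. That part can be read from the control plants, and NC2373 no-insertion plants against wild type gave 523 calls (0.913%). The rest is the difference between the effect of each mutant against its own control, called here the difference of effects, which gave 2289 calls (4.00%), 1352 higher (2.36%) and 937 lower (1.64%). That count lay between 990 and 2328 when 1 of the 11 arrays of these 4 groups was left out. It fell by over 1.5 times without homozygotes 117 (990 calls) or 118 (1227), without gs1;2 plants 356 (1336), 355 (1476) or 354 (1508), without no-insertion plant 153 (1492) and without wild type plant 627 (1505). For each gene the difference between the mutants is the sum of these parts, and both are given for some genes. The gs1;2 plants had no segregated control, so their effect against wild type also holds any other difference of that line. These arrays cannot separate it from the effect of the mutation. Over all probe sets, the SD of the difference between a pair of arrays was 0.279 for the homozygotes, 0.233 to 0.248 among the gs1;2 arrays and 0.452 to 0.513 between the mutants. The 11 arrays were alike in mean signal (5.93 in each), in the excess of 3' over 5' actin signal, a sign of RNA quality (2.22 to 2.64), and in poly-A spike signal (6.53 to 6.77). In the ND8037 arrays the actin excess was larger, 3.98 to 4.33.

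The disrupted genes separated the mutants. OsGS1;1 (LOC4330649, chromosome 2) read 8.85 and 8.65 in the NC2373 homozygotes and 11.83, 11.65 and 11.43 in gs1;2. It read 12.50, 11.80 and 12.06 in no-insertion plants and 11.21, 11.85 and 11.43 in wild type. Both homozygotes lay below all other arrays of these groups, and the gs1;2 arrays lay within the span of the controls. The mutants differed by -2.89 (SE 0.236, adjusted p = 6.77e-06), and the difference of effects was -3.51 (SE 0.317, adjusted p = 5.04e-05). OsGS1;2 (LOC4332108, chromosome 3) read 12.66 and 12.96 in the homozygotes and 7.21, 6.97 and 6.86 in gs1;2. Its controls read 12.70, 12.88 and 12.75 without the insertion and 12.63, 12.39 and 12.31 in wild type. Only the 3 gs1;2 arrays were low, and the mutants differed by 5.80 (SE 0.158, adjusted p = 3.14e-11). Neither cytosolic gene was called in the mutant of the other. Against their own controls, OsGS1;2 differed by 0.03 in the homozygotes (adjusted p = 0.9440) and OsGS1;1 by 0.14 in gs1;2 (adjusted p = 0.7746).

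The rest of the ammonium assimilation list holds 7 genes. OsGS2, for the plastid form, read 10.97 and 10.62 in the homozygotes, 8.30, 8.09 and 7.82 in the other mutant, 9.27, 9.20 and 9.71 in no-insertion plants and 8.54, 8.25 and 8.72 in wild type. Both homozygotes were above every other array. The mutants differed by 2.72 (SE 0.291, adjusted p = 5.53e-05), with 1.40 in the homozygotes and -0.43 in gs1;2 against their own controls. The difference of effects was 1.83 (adjusted p = 0.0181) and was not called without plant 117 (adjusted p = 0.0814). GLT2, for an NADH-dependent glutamate synthase, read 4.38 and 5.68 in the homozygotes and 4.17, 3.76 and 3.48 in the other mutant. Its difference of 1.23 (adjusted p = 0.0199) rested on plant 118, without which the adjusted p was 0.3172, and was also lost without gs1;2 plant 355 (0.0548) or 356 (0.0771). Fd-GOGAT, for the ferredoxin-dependent form, differed by 0.15, OsGS1;3 by 0.24, and the glutamate dehydrogenases OsGDH1, OsGDH2 and OsGDH3 by 0.10, 0.27 and -0.28, none of them called.

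**Figure D1:**
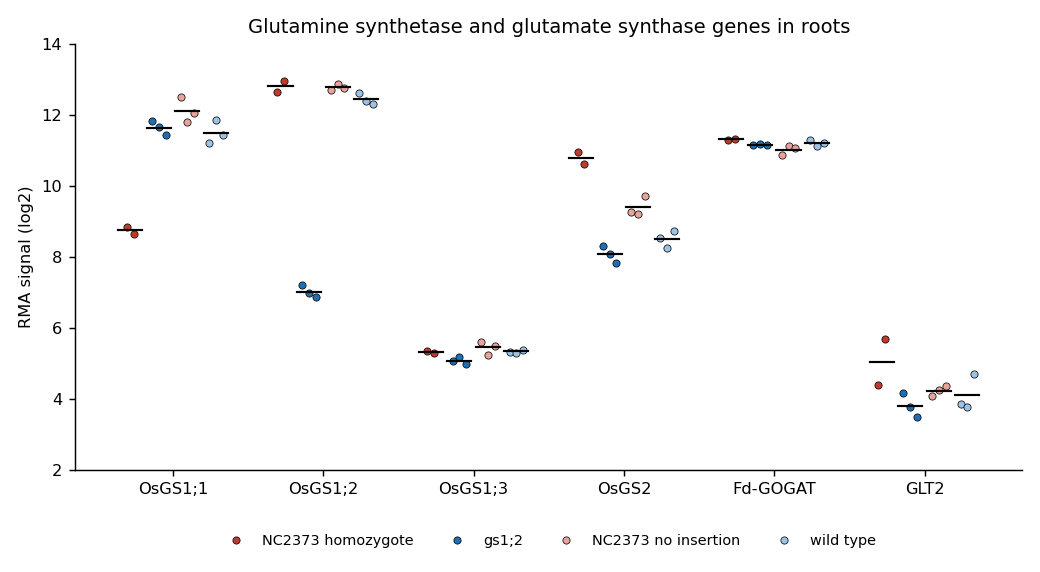
RMA signal (log2) of 6 ammonium assimilation genes in the 11 arrays of the NC2373 homozygotes, gs1;2, NC2373 no-insertion plants and wild type, where points are arrays and bars are group means. OsGS1;1 is low only in the homozygotes (8.85 and 8.65), OsGS1;2 only in gs1;2 (6.86 to 7.21), and OsGS2 is highest in the homozygotes (10.97 and 10.62).

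Among 8 measured ammonium transporter genes, 2 were called higher in the homozygotes and 1 lower, and the 2 became 0 without plant 117 and 1 without any one of plants 118, 355 or 356. OsAMT3;2 read 8.76 and 8.56 in the homozygotes, 9.74, 9.57 and 9.65 in the other mutant, 9.50, 9.34 and 9.32 in no-insertion plants and 9.06, 9.54 and 9.31 in wild type. Both homozygotes were below the other 9 arrays. Between the mutants it differed by -1.0 (SE 0.147, adjusted p = 5.60e-04) and the difference of effects was -1.08 (adjusted p = 0.0090), and both calls were kept whichever array was left out. Its probe set matches several transcripts. OsAMT2;1 differed by 1.12 (adjusted p = 0.0151, and 0.1269 without plant 117). OsAMT1;2, of the AMT1 group of high-affinity uptake transporters, differed by 0.98 (adjusted p = 0.0415), and the call was lost without any single one of plants 117 (0.1530), 118 (0.1667), 355 (0.1177) or 356 (0.1243). OsAMT1;1 differed by 0.10, OsAMT2;2 by 0.31, OsAMT2;3 by 0.67, OsAMT3;1 by -0.36 and OsAMT3;3 by 0.13, and these were not called. OsAMT2;3 was not called between the mutants (adjusted p = 0.0697) but its effects differed by 1.47 (adjusted p = 0.0162, and 0.0855 without plant 117).

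Of 7 genes of nitrate and urea uptake, 1 was called higher and 3 lower. OsDUR3, for a urea transporter, read 6.12 and 6.59 in the homozygotes and 5.14, 5.08 and 4.79 in the other mutant, with 5.33 to 5.61 in no-insertion plants and 5.06 to 5.74 in wild type. The homozygotes were above all the others, and the difference was 1.35 (SE 0.241, adjusted p = 0.0021), but the difference of effects was not called. OsNLP1, of the NIN-like transcription factors that act in nitrate responses, read 8.76 and 9.07 in the homozygotes, 9.48, 9.87 and 9.82 in the other mutant and 8.78 to 9.10 in all control plants. Here the gs1;2 arrays stood apart, 0.84 above wild type (adjusted p = 9.62e-04), and the mutants differed by -0.81 (adjusted p = 7.88e-04). OsNAR2.2, a partner protein of nitrate transporters, and the transporter gene OsNRT2.3 differed by -0.99 and -0.85. Without plant 117 the adjusted p of these was 0.0673 and 0.0718.

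The most extreme difference of the carbon skeleton list was in OsICL, for isocitrate lyase of the glyoxylate cycle, a route from acetyl-CoA to organic acids. It read 4.17 and 4.86 in the homozygotes, 9.45, 9.90 and 9.32 in the other mutant, 8.01, 8.85 and 8.51 in no-insertion plants and 8.30, 6.80 and 8.70 in wild type. The homozygotes were lowest by a wide margin and the gs1;2 arrays were the highest. Its difference between them was -5.05 (SE 0.518, adjusted p = 4.25e-05) and that of the effects -5.57 (SE 0.695, adjusted p = 8.40e-04), calls that held whichever array was left out. Against their own control the homozygotes were lower by 3.95 on the log2 scale (adjusted p = 0.0010), while the difference of 1.63 between gs1;2 and wild type was not called (adjusted p = 0.0642). The homozygotes of the second OsGS1;1 line, ND8037, differed from their own control by -3.61 (adjusted p = 0.0013). Of the 13 genes of the list, 1 was called higher and 1 lower, and the higher was PDHE1-A (LOC4340640), for a subunit of pyruvate dehydrogenase, at 1.11 (adjusted p = 0.0016).

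The 12 largest higher and 12 largest lower differences among named genes, with no overlap between the mutants, were then listed by direction. On the higher side, OsGS1;2 and the iron genes OsNAS1 and OsNAS2 stood beside 8 genes of the chloroplast and the chitinase gene Cht1. The chloroplast genes were RCAA1 and RBCS-C for Rubisco activase and the Rubisco small subunit, RCABP69, LHCP and CAB2R for light-harvesting proteins, LFNR1 for leaf ferredoxin-NADP reductase, and CHLP and CHLH for enzymes of chlorophyll synthesis. On the lower side, OsICL and OsGS1;1 stood with OsPCL1 of the circadian clock (-3.44), the auxin conjugate hydrolase gene ILL3 (-2.96), the transcription factor genes OsWRKY76 (-2.79) and OsWRKY62 (-2.12), the laccase gene LAC24 (-2.14), the small heat shock gene OsHsp18.6 (-1.93), the gene listed as ML (-2.09) and SGR, a stay-green gene of chlorophyll breakdown (-1.90).

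The remaining pair of lower genes, OsSAPK9 and OsBBD1, differed between the control groups about as much as between the mutants. OsSAPK9, for a kinase of the SnRK2 family, read 7.88 and 7.80 in the homozygotes, 9.85, 10.01 and 10.06 in the other mutant, 7.97, 8.43 and 8.62 in no-insertion plants and 10.04, 9.64 and 10.06 in wild type. The NC2373 plants with and without the insertion were low together, and gs1;2 and wild type were high together. Its signals differed by -2.13 between the mutants (adjusted p = 4.20e-06), NC2373 no-insertion plants differed from wild type by -1.57 (adjusted p = 3.58e-04), and the difference of effects was -0.56 (adjusted p = 0.1877). Its probe set matches several transcripts. OsBBD1, for a bifunctional nuclease, differed by -2.31 between the mutants (adjusted p = 0.0019), by -2.12 between the control groups (adjusted p = 0.0135) and by -0.19 in the effects (adjusted p = 0.8904). For RCABP69, Cht1, OsWRKY76 and SGR, too, the difference of effects was not called.

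**Figure D2:**
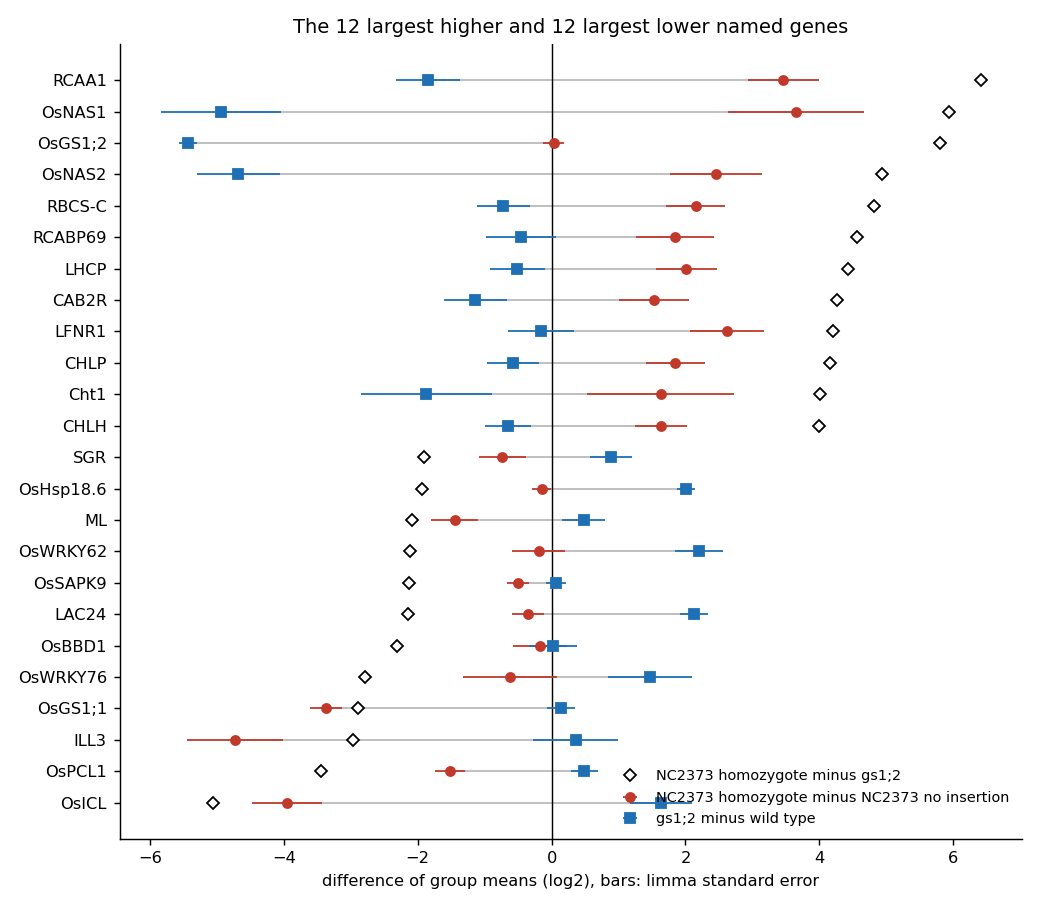
Differences of group means (log2) for the 12 largest higher and 12 largest lower named genes, with red circles for the NC2373 homozygotes minus no-insertion plants, blue squares for gs1;2 minus wild type (bars are limma standard errors) and open diamonds for the homozygotes minus gs1;2. For OsSAPK9 and OsBBD1 the own-control differences (-0.50 and 0.06, -0.17 and 0.02) are smaller in size than the direct differences of -2.13 and -2.31.

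ILL3 and the genes OsWRKY76, OsWRKY62, SGR and Cht1 were called on less even data. ILL3 read 7.24 and 5.37 in the homozygotes and 10.58, 9.19 and 8.03 in the other mutant, and its adjusted p of 0.0140 became 0.1917 without plant 118. The control plants of the NC2373 line read 10.77, 11.07 and 11.25, above wild type at 9.24, 8.42 and 9.06, and the effects differed by -5.09 (adjusted p = 0.0099, and 0.0550 without plant 118). Cht1 read 6.94 and 7.87 in the homozygotes and 3.83, 3.24 and 3.09 in the other mutant, but its controls ran from 3.22 to 7.73, and the call (4.01, adjusted p = 0.0273) was lost without any of plants 117 (0.0840), 118 (0.1758), 355 (0.0699) or 356 (0.0775). Without plant 117 the adjusted p was 0.0865 for OsWRKY76, 0.0575 for OsWRKY62 and 0.0597 for SGR, and OsWRKY76 was not called without plants 118 (0.0962) or 355 (0.0565) either.

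Genes of 26 pathways and families, with seed and root marker lists, were then counted with 1 probe set for each gene. Of 17905 genes, 2195 were called higher in the homozygotes (12.3%) and 1456 lower (8.13%), and their median difference was 0.01. The lists hold 605 genes, of which 98 were called higher and 46 lower. The photosynthetic, chlorophyll and iron lists had the highest medians, 2.71, 1.25 and 0.79. Most other medians lay close to that of all genes. List counts moved with single arrays. Of the 28 lists, the number called moved by over 1.5 times in 17 without plant 117, in 15 without plant 118, in 10 without plant 356, in 8 without plant 355 and in 4 without plant 354. The lists of ammonium assimilation, nitrate and urea, carbon skeletons, iron, photosynthesis and chlorophyll were in none of these.

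**Figure D3:**
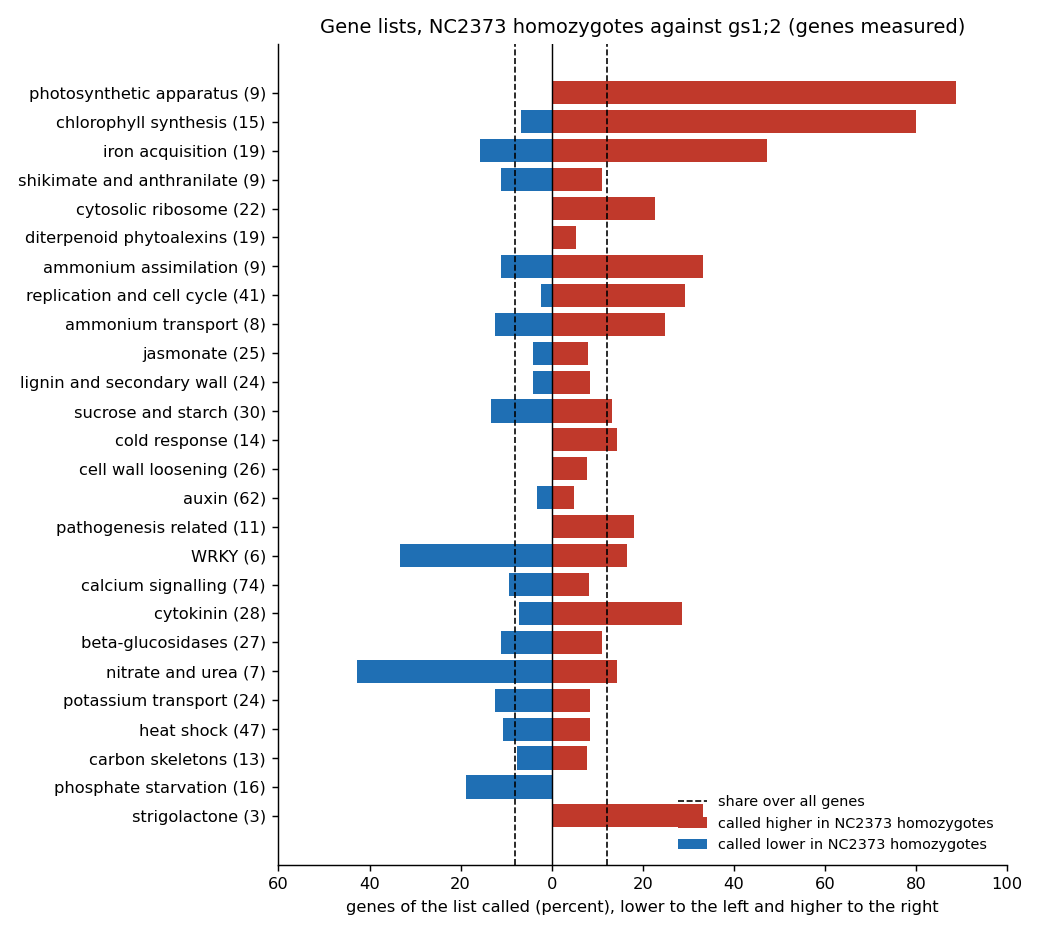
Percent of the measured genes of each list called higher (right) or lower (left) in the NC2373 homozygotes than in gs1;2, ordered by the median difference, with the number of genes in brackets and dashed lines at the shares over all genes (12.3 and 8.13). Photosynthesis (8 of 9 genes), chlorophyll synthesis (12 of 15) and iron acquisition (9 of 19) reach furthest to the right.

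Roots are normally poor in chloroplasts, and the nuclear genes of photosynthesis are low there unless plastids turn green. In the homozygotes 8 of 9 photosynthetic genes were called higher than in gs1;2 and none lower, and the count was the same in all 13 alternative settings. RCAA1, on the probe set with the largest difference, read 11.57 and 10.94 in the homozygotes and 5.69, 4.72 and 4.10 in the other mutant. No-insertion plants read 7.31, 7.51 and 8.56 and wild type read 6.60, 6.08 and 7.35. The group means fell in the order homozygotes, no-insertion plants, wild type, gs1;2, and the middle pair overlapped at 7.31 and 7.35. The mutants differed by 6.42 (SE 0.533, adjusted p = 7.87e-06) and the effects by 5.31 (SE 0.715, adjusted p = 0.0013), and both calls held whichever array was left out. RBCS-C, on a probe set that matches several transcripts, read 12.94 and 12.11 in the homozygotes and 7.82, 7.80 and 7.52 in the other mutant, with 10.15 to 10.77 in no-insertion plants and 8.07 to 8.84 in wild type. It differed by 4.81 (SE 0.444, adjusted p = 1.93e-05), of which 1.93 separated the control groups (adjusted p = 0.0340) and 2.88 the effects (adjusted p = 0.0159, and 0.0811 without plant 117). LFNR1, CAB2R (on the probe set of highest signal), PSB28, PSAH, PETC and OsPSAG followed at 4.20, 2.90, 2.71, 2.44, 1.88 and 1.57. PSAH and OsPSAG encode subunits of photosystem I and PETC the Rieske protein of the cytochrome b6f complex. RBCS1 read 2.27 to 2.66 in all 11 arrays, near the lowest signals, and did not pass (0.04).

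Chlorophyll synthesis ran the same way, with 12 of 15 genes called higher and 1 lower. OsGLK1, for a transcription factor that switches on chloroplast genes, read 10.25 and 10.70 in the homozygotes and 7.36, 5.87 and 7.24 in the other mutant. Its controls read 8.24, 8.83 and 8.85 without the insertion and 6.36, 6.66 and 8.08 in wild type. Both homozygotes were above all others, and the mutants differed by 3.65 (SE 0.496, adjusted p = 3.06e-04), though the effects did not pass (2.04, adjusted p = 0.1026). CHLH, for a subunit of the magnesium chelatase that commits porphyrin to chlorophyll, differed by 3.99 (adjusted p = 2.90e-05). PORA and PORB, for the light-driven protochlorophyllide reductases, differed by 3.96 and 3.02, but the difference of effects was not called for PORB. GluTR, for the first enzyme of the path, read 11.09 and 11.08 in the homozygotes and 9.46, 9.51 and 9.61 in the other mutant, against 9.93 to 10.29 in all controls. Both mutants lay outside the controls, on opposite sides, and the effects differed by 1.51 (SE 0.219, adjusted p = 0.0022). HO1, for a haem oxygenase of the list, was lower (-0.70, adjusted p = 0.0132), a call lost without plants 117 (0.0940), 118 (0.0598) or 355 (0.0547), and HEMD and OsGLK2 did not pass. GluTR and HO1 were chosen for mention after their values were seen.

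NC2373 no-insertion plants also differed from wild type in 2 photosynthetic and 2 chlorophyll genes, each higher, where 0.787% of all genes were called higher. The photosynthetic count was 1 without plant 152, 0 without any one of plants 153, 154, 627 or 628 and 5 without plant 629, and the chlorophyll count was 1 without any one of these but plant 629, where it was 4. In the difference of effects 4 photosynthetic and 6 chlorophyll genes were called, all higher, beside 4.44% of all genes called higher and 2.81% lower. Without plant 117 these counts were 1 and 2, and the chlorophyll count was also 2 without no-insertion plant 152 or gs1;2 plant 356 and 3 without plant 355. Against their own controls 6 photosynthetic and 9 chlorophyll genes were higher in the homozygotes and none was called in either direction in gs1;2. These counts use the probe set of highest signal, on which RCAA1 differed by -1.29 between gs1;2 and wild type (adjusted p = 0.0890). On the RCAA1 probe set described first, gs1;2 differed from wild type by -1.84 (adjusted p = 0.0435), a call lost without any one of plants 117, 118, 153, 355, 356, 627, 628 or 629 (adjusted p of 0.0515 to 0.2124). Over all genes the homozygotes had 7.13% called higher and 6.99% lower, and gs1;2 had 2.29% and 4.59%. Without plant 117 the homozygote counts were 1 and 2, and the chlorophyll count was 4 without plant 118 or 152 and 5 without plant 153. In the second line, ND8037, 4 photosynthetic genes were called higher and none lower, and 5 chlorophyll genes higher and 1 lower, beside 8.68% and 7.22% of all genes.

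The mean level of the photosynthetic list was 9.81 to 10.15 in the homozygotes, 8.04 to 8.72 in no-insertion plants, 7.03 to 8.03 in wild type and 6.95 to 7.28 in gs1;2. These genes also mark green shoot tissue. In bulk roots, more cells with green plastids, shoot tissue in a sample and more RNA per cell cannot be told apart. The mean of the 8 root identity genes was 7.91 to 8.14 in the homozygotes and 7.79 to 7.97 in gs1;2, against 8.11 to 8.39 in the control plants. Of these 8 genes, 1 was called, the aquaporin gene OsPIP2;5, higher in the homozygotes (1.76, adjusted p = 0.0053), and 2 were called without plant 118. The mean of 10 seed storage and germination genes was 5.59 to 5.86 over all 11 arrays, with 1 call (GLB, -0.37, adjusted p = 0.0136, and 0.1783 without plant 118). The part of tissue makeup in the difference was not tested.

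**Figure D4:**
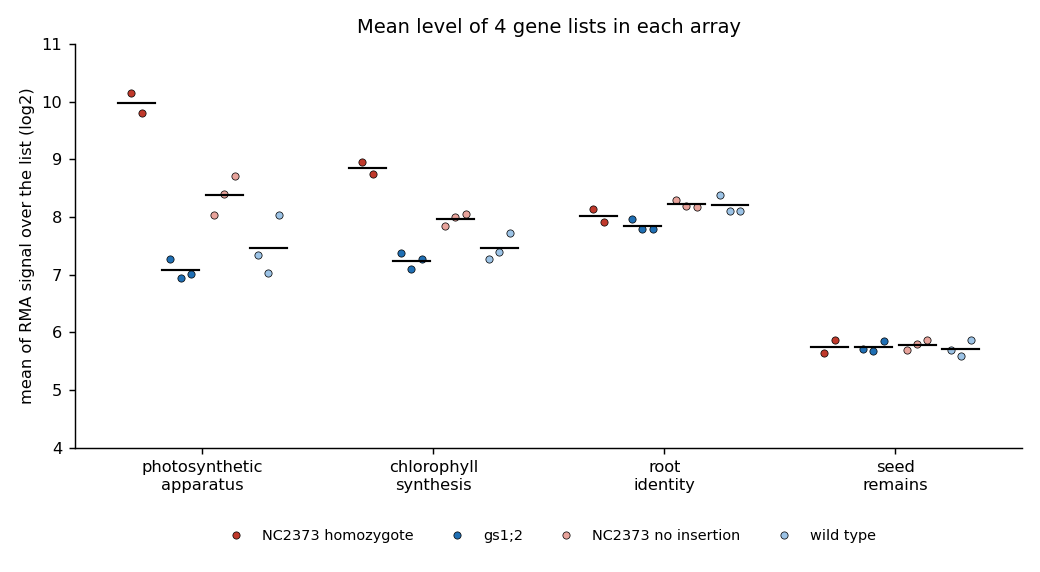
Mean RMA signal (log2) over the photosynthetic, chlorophyll, root identity and seed lists in each of the 11 arrays, where points are arrays and bars are group means. The homozygotes lie above the other groups for photosynthesis (9.81 to 10.15) and chlorophyll synthesis (8.75 to 8.96), while the seed list spans 5.59 to 5.86 in all groups.

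Grasses take up iron by releasing phytosiderophores, which are built from nicotianamine and carried back into the root as iron complexes. Of 19 iron acquisition genes, 9 were called higher in the homozygotes than in gs1;2 and 3 lower. Without plant 117 the counts were 6 and 2, without plants 118 or 355 they were 8 and 2, and without plant 356 they were 7 and 2. OsNAS1, for nicotianamine synthase, read 11.98 and 9.52 in the homozygotes and 4.72, 6.67 and 3.01 in the other mutant. No-insertion plants read 8.47, 6.60 and 6.23 and wild type read 9.46, 9.50 and 10.26. The homozygotes were the upper group and gs1;2 the lower, although plant 118 overlapped wild type and plant 355 overlapped the no-insertion plants. The difference was 5.94 (SE 1.01, adjusted p = 0.0015), and the effects, 3.65 in the homozygotes and -4.94 in gs1;2, differed by 8.58 (SE 1.35, adjusted p = 0.0037). OsNAS2, for another enzyme of that kind, differed by 4.93 (SE 0.689, adjusted p = 3.73e-04), and its effects by 7.14 (adjusted p = 0.0010). It read 12.87 and 11.10 in the homozygotes and 6.84, 8.25 and 6.07 in gs1;2. No-insertion plants read 10.47, 9.17 and 8.93, all below wild type at 11.52, 11.63 and 12.04. The homozygotes lay on both sides of wild type, and their effect against no-insertion plants was 2.46 (adjusted p = 0.0417).

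The transporter gene OsYSL15, for uptake of iron phytosiderophore complexes, read 10.05 and 8.24 in the homozygotes, 5.95, 6.17 and 5.72 in the other mutant, 7.00, 7.15 and 6.40 in no-insertion plants and 8.25, 8.09 and 8.09 in wild type. The gs1;2 arrays were the lowest, and plant 118 lay at the level of wild type. Between the mutants the difference was 3.20 (SE 0.420, adjusted p = 2.40e-04) and in the effects 4.50 (SE 0.564, adjusted p = 8.40e-04). OsNAAT1, for the aminotransferase after nicotianamine, differed by 2.04 (adjusted p = 0.0017), with own-control effects of 1.86 and -1.74. It read 11.54 and 10.69 in the homozygotes and 8.62, 9.73 and 8.89 in gs1;2. The controls read 8.90, 9.41 and 9.48 without the insertion and 11.08, 10.54 and 10.83 in wild type. The control groups differed by -1.56 (adjusted p = 0.0316), and gs1;2 overlapped the no-insertion plants. OsNRAMP1, for a metal transporter, read 10.13 and 7.63 in the homozygotes against 5.62 to 6.51 in gs1;2, and its difference of 2.83 (adjusted p = 0.0047) was not called without plant 117 (1.57, adjusted p = 0.0840).

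The 3 lower genes included another nicotianamine synthase gene. OsYSL13 differed by -1.74 (adjusted p = 4.98e-04), OsNAS3, for nicotianamine synthase, by -0.77 (adjusted p = 0.0130, and 0.1170 without plant 117), and OsIRT1, for a transporter of ferrous iron, by -0.83 (adjusted p = 0.0442). The OsIRT1 call was lost without plants 118 (0.3678), 355 (0.1170) or 356 (0.1531). OsIRT1 read 5.94, 6.49 and 6.66 in gs1;2, above wild type at 5.22, 5.24 and 4.82 (1.27, adjusted p = 0.0065). Against wild type 4 iron genes were lower in gs1;2 and 1 higher, and without plants 117 or 118 the lower count was 6. Against no-insertion plants 7 were higher in the homozygotes and 1 lower, and that split rested on plant 117, since without it none was called in either direction. Without no-insertion plants 153 or 154 it was 3 higher, and without wild type plant 627 it was 4. The difference of effects passed in 7 genes on the higher and 2 on the lower side, and in 5 and none without plant 117. The lower side was 1 without any one of plants 153, 154, 354, 355, 356, 627, 628 or 629. OsYSL13, OsNAS3 and OsIRT1 were not among the genes that passed. Their differences of effects were -0.87, -0.54 and -0.74 (adjusted p = 0.1751, 0.2488 and 0.2507). In ND8037, 5 iron genes were higher and 4 lower. Over all genes, 2.29% were higher and 4.59% lower in gs1;2, and 7.13% and 6.99% in the homozygotes. These shares were 4.44% and 2.81% for the difference of effects and 8.68% and 7.22% in ND8037. OsNAAT1, OsYSL13, OsNAS3 and OsIRT1 were chosen for mention after their values were seen.

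**Figure D5:**
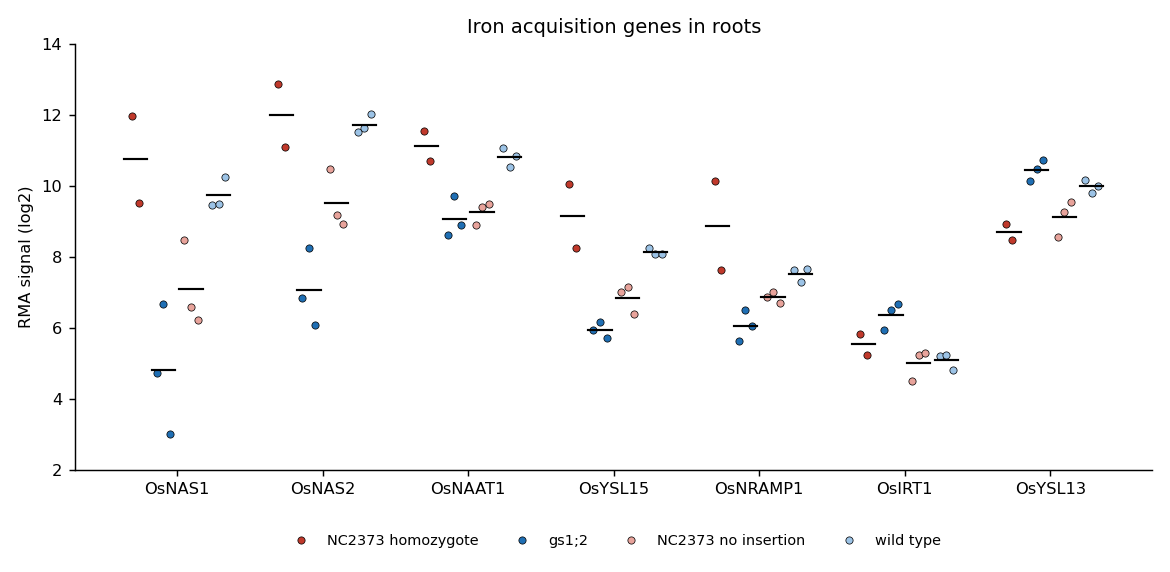
RMA signal (log2) of 7 iron acquisition genes in the 11 arrays, where points are arrays and bars are group means. By group mean, OsNAS1, OsNAS2, OsNAAT1, OsYSL15 and OsNRAMP1 are lowest in gs1;2 and OsIRT1 is highest there. In OsNAS1 and OsNAAT1 the gs1;2 arrays overlap the no-insertion plants. The homozygotes, such as 11.98 and 9.52 for OsNAS1, are spread apart.

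Among the cytokinin genes, 8 of 28 were called higher and 2 lower, with 35.7% called in all and a median of -0.03. Cytokinins are hormones that follow nitrogen supply, and type A response regulators such as OsRR4 and OsRR2 are induced by them. OsRR4 read 8.60 and 8.03 in the homozygotes and 6.37, 6.35 and 6.29 in the other mutant, with 6.86 to 7.37 in no-insertion plants and 6.58 to 6.73 in wild type. The homozygotes were above all others, and the difference was 1.98 (SE 0.262, adjusted p = 2.57e-04). OsRR2 differed by 1.04 (adjusted p = 5.60e-04), but its difference of effects was not called. The cytokinin oxidase genes OsCKX4 and OsCKX5, whose products break cytokinins down, differed by 2.06 (adjusted p = 0.0056, and 0.0510 without plant 118) and 1.14 (adjusted p = 0.0015). OsCKX5 lay at 6.73 and 6.68 in the homozygotes and 5.39 to 5.72 in gs1;2, and its effects had opposite signs, 0.94 and -0.79. The cytokinin counts were 6 higher and none lower without plant 117, and 5 and 1 without plant 118.

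Few genes of the other hormone lists passed, and their counts moved with single arrays. Of 62 auxin genes, 3 were called higher and 2 lower, 8.06% of the list beside 20.4% of all genes. Without plants 117, 118, 355 or 356 the auxin calls numbered 1, 1, 1 and 2. The largest after ILL3 was OsETTIN1, an auxin response factor gene, at 0.75 (adjusted p = 0.0248), lost without plants 117 (0.0855), 118 (0.1562), 355 (0.0923) or 356 (0.0752). Of 25 jasmonate genes, 2 were called higher and 1 lower, with OsJAZ11, for a repressor of the response, at 0.99 (adjusted p = 0.0253, and 0.2506 without plant 118). No jasmonate gene was called without plant 118, and 1 was called without plants 354 or 356. Of 19 diterpenoid phytoalexin genes, 1 was called, OsCPS1, for a diterpene cyclase, at 2.01 (adjusted p = 0.0206). Without plants 117 or 118 its adjusted p was 0.0941 or 0.1137, and without plants 354 or 355 it was 0.0672 or 0.0726. Of 3 strigolactone genes, D14, for the receptor, was called at 0.26 (adjusted p = 0.0456) and was lost when any of the 5 arrays was left out (adjusted p of 0.0561 to 0.1679).

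Of 30 sucrose and starch genes, 4 were called higher and 4 lower, which became 2 and 2 without plant 117 and 1 and 4 without plant 118. AGPS2, for a subunit of the ADP-glucose pyrophosphorylase that feeds starch synthesis, read 10.52 and 10.22 in the homozygotes and 8.87, 8.74 and 8.57 in the other mutant, with 8.80 to 9.49 over all controls. The homozygotes were above all others, and the difference was 1.64 (SE 0.231, adjusted p = 4.03e-04). OsSUT1, for a sucrose transporter, read 7.87 and 8.34 in the homozygotes, 9.33, 9.22 and 9.44 in the other mutant, 8.53, 8.76 and 9.14 in no-insertion plants and 8.04, 7.34 and 8.58 in wild type. The gs1;2 arrays were the highest, 1.34 above wild type (adjusted p = 0.0065). The difference of -1.23 between the mutants (adjusted p = 0.0074) was not called without plant 117 (0.0974), whereas that of the effects, -2.05 (adjusted p = 0.0064), was called whichever array was left out.

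Of 16 phosphate genes none was higher and 3 were lower (1 without plant 117). The phosphate transporter gene OsPht1;4 read 9.16 and 8.44 in the homozygotes, 9.90, 10.03 and 9.94 in the other mutant and 8.58 to 9.13 over all controls. Only gs1;2 stood apart, 1.05 above wild type (adjusted p = 0.0033), and the mutants differed by -1.15 (SE 0.185, adjusted p = 0.0011). Its probe set matches several transcripts. Of 24 potassium transport genes, 2 were higher and 3 lower, and without plants 117, 118, 355 or 356 the calls numbered 2, 1, 1 and 3. OsHAK27, of the HAK family, read 5.43 and 4.77 in the homozygotes and 2.65 to 3.00 in the other 9 arrays, a difference of 2.39 (adjusted p = 0.0057, and 0.0734 without plant 117). Of 14 cold response genes, 2 were higher and none lower, with OsTPP9, for a trehalose phosphate phosphatase, at 0.73 (adjusted p = 0.0081, and 0.0690 without plant 118). The cold response count was 0 without plant 118 and 1 without plant 355.

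Genes of DNA replication and the cell cycle were called higher in 12 of 41 cases and lower in 1. OsRPA32, for a subunit of the protein that coats single-stranded DNA, read 8.07 and 7.94 in the homozygotes, 7.34, 7.15 and 6.56 in the other mutant, 8.38, 8.35 and 8.20 in no-insertion plants and 8.02, 8.10 and 7.69 in wild type. The homozygotes lay at the level of wild type, and gs1;2 lay below all other groups. Between the mutants the gene differed by 0.99 (SE 0.189, adjusted p = 0.0035) and gs1;2 differed from wild type by -0.92 (adjusted p = 0.0082). OsRPA70b, OsMCM6 and CYCB2, for a further RPA subunit, a helicase subunit and a B-type cyclin, differed by 1.15, 1.03 and 0.89, none of them called without plant 117 (adjusted p of 0.1010, 0.0729 and 0.1112). CYCB2 was not called without plants 118 (0.1129) or 356 (0.0873) either. In the whole list, 12 genes were lower in gs1;2 than in wild type and none higher, beside 4.59% and 2.29% of all genes. In the homozygotes 2 were higher and 3 lower than in their control, beside 7.13% and 6.99% of all genes. Of the differences of effects, none was called on the higher side and 1 on the lower, beside 4.44% and 2.81% of all genes. Without plant 117 the 12 and 1 calls between the mutants became 3 and none, without plant 118 they became 4 and 1, and without plant 356 they became 7 and 1. The 12 calls of gs1;2 against wild type became 3 without plants 356 or 628 and 4 without plant 627. In ND8037 the homozygotes had 13 of these genes higher and 2 lower than their control, beside 8.68% and 7.22% of all genes.

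Of 22 cytosolic ribosomal protein genes 5 were called higher and none lower, with a median of 0.28. RPS10-1 read 8.45 and 8.27 in the homozygotes and 7.53, 7.37 and 7.34 in the other mutant, with 7.77 to 8.27 in the controls. It was 0.94 higher in the homozygotes (SE 0.153, adjusted p = 0.0011). The count was 1 without plant 117 and 3 without plant 118. Against their own controls none of the 22 was called in the homozygotes and 2 were lower in gs1;2, which became none when any array of the homozygotes, gs1;2 or wild type was left out, or no-insertion plant 154. The difference of effects was called in 1, and in none without any one of plants 117, 118, 153, 355, 356, 628 or 629. In ND8037, 19 of the 22 were higher than in their control and none lower, beside 8.68% and 7.22% of all genes. Over all genes the homozygotes had 7.13% called higher and 6.99% lower, and gs1;2 had 2.29% and 4.59%. The difference of effects had 4.44% and 2.81%. Of 47 heat shock genes, 4 were higher and 5 lower, against 3 and 2 without plants 117 or 356. OsHsp18.6 read 5.29 and 5.06 in the homozygotes, 7.40, 6.93 and 6.98 in the other mutant, and 5.03 to 5.44 over all controls. It was high in gs1;2 alone, 2.01 above wild type (adjusted p = 8.40e-07), and the effects differed by -2.16 (SE 0.199, adjusted p = 6.02e-05). Its probe set matches several transcripts. BIP1, for a chaperone of the endoplasmic reticulum, differed by 0.76 (adjusted p = 0.0025).

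Of 24 lignin and secondary wall genes 2 were called higher and 1 lower, and laccase genes led both ways. LAC10 read 8.19 and 8.83 in the homozygotes, 6.77, 4.81 and 4.96 in the other mutant, 6.78 to 7.34 in no-insertion plants and 5.42 to 6.38 in wild type. The homozygotes were above all others, and the difference was 3.00 (SE 0.460, adjusted p = 7.46e-04), but the difference of effects was not called. LAC24 read 9.22 and 9.43 in the homozygotes, 11.25, 11.56 and 11.57 in the other mutant and 8.92 to 9.90 over all controls. The gs1;2 arrays stood alone above the rest, 2.13 above wild type (adjusted p = 6.57e-05), and the effects differed by -2.48 (adjusted p = 8.86e-04). Of 26 wall-loosening genes 2 were called higher, among them OsEXPB7, for an expansin, at 1.62 (adjusted p = 0.0052, and 0.0668 without plant 117). The wall-loosening count was 0 without plant 117 and 1 without any one of plants 118, 355 or 356, and the lignin count was 6 higher and 1 lower without plant 118. Laccases polymerise lignin precursors and expansins loosen the wall.

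Most signalling and defence lists had shares of called genes close to that of all genes (20.4%), namely 17.6% for calcium signalling, 18.2% for pathogenesis related genes and 22.2% each for beta-glucosidases and for shikimate and anthranilate genes. Of 74 calcium signalling genes 6 were higher and 7 lower. Without plant 117 these were 4 and none, and without plant 355 they were 4 each. OsCDPK21, for a calcium-dependent protein kinase, read 6.76 and 7.08 in the homozygotes, 5.12, 5.10 and 5.57 in the other mutant, 4.91 to 5.48 in no-insertion plants and 5.72 to 6.35 in wild type. The homozygotes were the highest and the gs1;2 arrays lay below wild type. The difference was 1.65 (SE 0.256, adjusted p = 7.88e-04) and that of the effects 2.45 (adjusted p = 0.0017). Of 6 WRKY genes 1 was higher and 2 lower, the higher being OsWRKY24 at 1.06 (adjusted p = 0.0129, and 0.1504 without plant 118). The higher WRKY call was lost without plant 118 and both lower calls without plant 117. Of 27 beta-glucosidase genes 3 were higher and 3 lower, from Os1bglu5 at 2.46 (adjusted p = 6.25e-04) to Os10bglu34 at -1.72 (adjusted p = 2.93e-04). These 6 calls became 3 without plants 117 or 118 and 2 without plant 356. Of 11 pathogenesis related genes 2 were higher, 1 without plant 354 and none without any of the other 4 plants. Of 9 shikimate and anthranilate genes 1 was higher and 1 lower, and 1 or none was called without any one of plants 117, 118, 355 or 356.

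Whether the mutants moved the same genes was asked of the own-control effects, which share no array. The homozygotes had 2527 called genes (14.1%) and gs1;2 had 1231 (6.88%). Of these, 191 were called in both, 7.56% of the homozygote genes and 15.5% of the gs1;2 genes. The 7.56% lies near the 6.88% of all genes called in gs1;2, and the 15.5% near the 14.1% called in the homozygotes. In 128 of the 191 genes the direction was the same and in 63 it was opposite. Of the 63, 41 were higher in the homozygotes and lower in gs1;2 and 22 were the reverse. These counts depend on single plants. The 191 shared genes became 58 without gs1;2 plant 356, 84 without plant 355, 73 and 92 without homozygotes 117 and 118, 87 and 111 without wild type plants 628 and 627, and 305 without wild type plant 629. The genes with opposite effects numbered 21 without plants 117 or 356, 31 without plants 355 or 627, 36 without plant 628, 41 without plant 354 and 42 without plant 118.

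Of the 63 genes with opposite effects, 15 have a name, and all 15 are given here after their values were seen. Higher in the homozygotes and lower in gs1;2 were OsNAS1, OsNAS2, OsYSL15 and OsNAAT1 of iron acquisition, and mdr17, PCF8, OsWRKY24, OsCKX5, OsPIP1;3, OsSUT4, OsKCO1 and OsAGP1. The reverse held for APG8B, GRXC7 and Os10bglu34. PCF8, a transcription factor gene of the TCP family, had effects of 0.93 (adjusted p = 0.0084) and -1.14 (adjusted p = 0.0020). Its means were 6.94 in the homozygotes, 6.01 in no-insertion plants, 6.93 in wild type and 5.78 in gs1;2. NC2373 no-insertion plants differed from wild type by -0.91 (adjusted p = 0.0193), so each mutant lay near the control of the other. In OsNAAT1 the control groups differed by -1.56 (adjusted p = 0.0316). The effects of mdr17, named as a multidrug resistance gene of the ABC transporters, were 1.37 (adjusted p = 0.0011) and -0.73 (adjusted p = 0.0225). Without any 1 of 11 arrays, both effects were called in 10 of the 11 fits for OsYSL15, OsNAAT1 and PCF8, in 7 for OsNAS1 and mdr17, and in 1 to 6 for the others.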

How the data were processed

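Roots were measured on Affymetrix rice arrays. The authors deposited log2 values, 1 for each probe set on each array. They come from RMA, the robust multi-array average, as the submitters' processing notes state. The program and its version were not given in the sources used here. Such values are corrected for background, put on a shared distribution and combined over probes, so a change shared by all transcripts would not show. The 11 arrays of the 4 groups compared share 1 signal distribution, and the 6 ND8037 arrays another (mean 5.36 to 5.38), so no level was set across the sets.

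The array has 57381 probe sets. After removal of 123 Affymetrix controls, 57258 remained and were tested at any signal. All 17 arrays of the 6 groups entered 1 limma 3.58.1 fit (R 4.3.3, lmFit, contrasts.fit, eBayes) with a mean per group, 11 residual and 3.83 prior degrees of freedom. Tests are two-sided, and every adjusted p is from limma by Benjamini-Hochberg over all tested probe sets. The median SE was 0.127, and the number of arrays, 2 against 3, limits the precision. The fit was tested on simulated data before use. Summaries and plots used Python 3.11.15, pandas 2.3.3 and matplotlib 3.10.9.

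Names came from the platform annotation and a RefSeq gene table: 22436 probe sets have 1 gene, 95 have several and 34727 have none listed here. They stand for 17905 genes, 2455 of them named beyond an identifier. A gene is represented by its probe set of highest mean signal over the 11 arrays. Probe sets of the s_at and x_at types (9990) match several transcripts.

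The lists and the genes named were chosen with earlier results of these data known. The naming rule took the ammonium assimilation and transport lists, the 12 largest called named genes in each direction with no overlap between the mutants, and up to 4 called members of each list by size. Names outside it are marked in the text. The alternatives were other sets of arrays, quantile normalization, median centring, a filter on mean signal at 5, another prior, array weights, the mean of all probe sets of a gene, and leaving out each array in turn.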

Additional observations from a re-analysis of the deposited data

Results flagged for a closer look

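These results were picked out because the effect of each mutant against its own control differed by a test of the difference itself. No group holds 4 or more arrays, so single arrays were not tested as outliers. Over all probe sets 2289 passed (4.00%). Of 103 genes named by the rule 43 passed, 29 higher in the NC2373 homozygotes relative to gs1;2 and 14 lower. Apart from the ammonium lists, these genes were named because they were called between the mutants. The difference of effects contains that same difference, so their share cannot be set against that of all probe sets. The other genes named by the rule, such as OsHAK27 and LAC10, did not pass. Values below are the difference of effects on the log2 scale.

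In nitrogen metabolism the values were -3.51 for OsGS1;1, 5.46 for OsGS1;2, 1.83 for OsGS2, 0.90 for OsAMT2;2, 1.47 for OsAMT2;3, -1.08 for OsAMT3;2, -1.34 for OsNAR2.2 and -0.89 for OsNLP1. In carbon metabolism they were -5.57 for OsICL, 1.07 for PDHE1-A, 1.37 for AGPS2, -2.05 for OsSUT1 and 1.06 for OsTPP9. Iron genes gave 8.58 for OsNAS1, 7.14 for OsNAS2, 4.50 for OsYSL15 and 3.49 for OsNRAMP1. Chloroplast genes gave 5.31 for RCAA1, 2.88 for RBCS-C, 2.52 for LHCP, 2.68 for CAB2R, 2.78 for LFNR1, 2.43 for CHLP, 2.29 for CHLH and 3.07 for PORA. The CAB2R value is from a probe set that matches several transcripts, and on the CAB2R probe set of highest signal the difference of effects was 1.68 and was not called (adjusted p = 0.1057).

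Among hormone genes the values were -5.09 for ILL3, 0.78 for ARF10, 0.60 for OsJAZ4, 3.00 for OsCKX4, 1.73 for OsCKX5 and 1.49 for OsRR4. Signalling and transcription genes gave -2.01 for OsPCL1, -2.40 for OsWRKY62, 2.03 for OsWRKY24, 1.84 for CML17 and 2.45 for OsCDPK21. The rest were -2.48 for LAC24, -2.16 for OsHsp18.6, -1.93 for ML, -1.09 for OsPht1;4, 0.83 for RPS10-1, 2.3 for Os1bglu5 and -1.83 for Os10bglu34.

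The calls for OsGS1;1, OsGS1;2, OsAMT3;2, RCAA1, OsNAS1, OsNAS2, OsICL, OsPCL1, LAC24, OsHsp18.6, OsYSL15, OsCKX4, OsCKX5, OsSUT1, OsWRKY24, OsCDPK21 and Os10bglu34 held under every alternative tried. OsAMT2;2 was lost in 12 of its alternatives, CAB2R and LFNR1 in 10 each, ML and OsJAZ4 in 9 each, and LHCP, CHLP, PDHE1-A and RPS10-1 in 8 each.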

How the results depend on the processing

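The 6740 calls between the mutants lay between 5615 and 7621 under the 7 alternatives that kept both mutants whole, and between 3209 and 5593 when 1 of their 5 arrays was left out. The 2289 calls for the difference of effects lay between 2044 and 2669 under the alternatives that left out no array of the 4 groups, and between 990 and 2328 when 1 of 11 arrays was left out. The share of calls that were higher in the homozygotes, 54.5%, was 47.8% after quantile normalization and 61.6% after median centring. Of 95 named values called between the mutants, all kept their direction, 45 were called under every alternative that tested them and 72 under every one except leaving out a single array. Calls lost numbered 37 without plant 117, 30 without plant 118, 21 without plant 356, 20 without plant 355 and 8 without plant 354. Fits on the 5 arrays compared lost 18, fits on 11 arrays and quantile normalization 13 each, the mean of all probe sets 3, median centring 1, and a trended prior or array weights none. The fits with fewer arrays have fewer degrees of freedom, and other causes were not tested. Values that changed sign were never called: OsGDH1 (from -0.03 without plant 118 to 0.22 without plant 117), OsGDH2 (from -0.05 to 0.59 likewise), OsAMT3;3 (-0.15 without plant 117, -0.04 without plant 355, up to 0.42 without plant 118), and OsAMT1;1 at -0.08 with the mean of its probe sets. No paired analysis was possible because the groups share no sample numbers.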

Other observations

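Of 7 genes of the circadian clock, a set chosen after its values were seen, 1 was called higher in the homozygotes and 2 lower, with a median of 0.02. OsCCA1, of the morning phase of the clock, read 10.53 and 10.50 in the homozygotes, 7.98, 8.09 and 8.03 in the other mutant, 9.17, 9.42 and 9.41 in no-insertion plants and 8.33, 8.36 and 8.24 in wild type. No group overlapped another. OsCCA1 differed by 2.48 between the mutants (SE 0.0919, adjusted p = 1.45e-09), by 1.46 in the effects (adjusted p = 2.47e-05) and by 1.02 between the control groups (adjusted p = 5.67e-05). A further OsCCA1 probe set, of low signal (3.84 to 4.42), did not pass (-0.24). OsPCL1, of the evening phase, read 6.94 and 6.70 in the homozygotes, 10.47, 10.01 and 10.30 in the other mutant, 8.75, 8.47 and 7.79 in no-insertion plants and 9.72, 9.85 and 9.73 in wild type. It ran the opposite way, by -3.44 between the mutants (adjusted p = 4.23e-07), -2.01 in the effects and -1.43 between the control groups (adjusted p = 0.0053). OsPRR1 differed by -0.66 (adjusted p = 0.0015), with -0.53 between the control groups (adjusted p = 0.0226), and GI, OsPRR73 and OsPRR95 were not called. OsPRR37 differed by 0.69 (adjusted p = 0.0185, up to 0.1457 without 1 array) on a probe set of lower signal and by 0.24, not called, on the other. The hour at which each group was harvested is not given in the sources used here, and its part was not tested.

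The largest difference of any probe set was in LOC4331398 on chromosome 3, a gene with no name in the annotation and picked for its values. It read 3.24 and 3.21 in the homozygotes, 11.37, 11.63 and 11.68 in the other mutant, 5.54, 3.33 and 3.49 in no-insertion plants and 3.32, 3.67 and 3.44 in wild type. Only the gs1;2 arrays were high, with no-insertion plant 152 next. The difference between the mutants was -8.34 (SE 0.468, adjusted p = 1.44e-07), and the other probe set of the gene, which matches several transcripts, gave -8.26. Among its 10 nearest measured genes on each side, 6 were higher and 2 lower between the mutants, with differences from -0.58 to 1.54. The 20 neighbours of OsGS1;1 on chromosome 2 gave 3 higher and 4 lower (-1.07 to 1.22), and those of OsGS1;2 on chromosome 3 gave 2 higher and none lower (-0.29 to 1.78).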
